A study of Mus musculus with 10 samples.

Results

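Mitochondrial ribosomal proteins are encoded in the nucleus, made in the cytosol and imported into mitochondria, where they join 2 ribosomal RNAs of the mitochondrial genome. The genes described here were all genes of the count table with the GENCODE M21 type protein_coding and a symbol that begins with Mrpl or Mrps and a digit. There were 78 of them among 52636 genes, of which 49 (Mrpl) carry the name of the large subunit and 29 (Mrps) that of the small subunit. All 78 passed the filter on low counts and were tested together with the other genes, 15916 in all. The choice used type and symbol alone, but it was made with earlier results of these data known.

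Libraries came from DIN cells, a mouse model of acute myeloid leukaemia in which fetal liver cells carry retroviral MSCV vectors for NRAS G12D, IDH2 R140Q and DNMT3A R882H. Cells frozen from sick mice went into new Ptprca recipients, which had normal food and water or food and water with doxycycline for 5 or 14 days. Doxycycline switches off the DNMT3A R882H vector, so untreated cells are called on and treated cells off. Cells with cKit and without CD11b were sorted from marrow and spleen. The level of the vector's own transcript was not analysed here. There were 2 day 5 on, 2 day 5 off, 2 day 14 on and 4 day 14 off libraries, and every group carried the IDH2 R140Q and NRAS G12D vectors. The labels give neither the organ nor the mouse of a library, nor an age, so p-values measure the spread between these libraries, which may be technical.

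The large subunit of the mitochondrial ribosome joins amino acids and the small subunit reads the messenger RNA. Their only products are a few proteins of the respiratory chain and ATP synthase, encoded in the mitochondrial genome, and leukaemic progenitors are known to depend on this translation. Doxycycline is a tetracycline, a class of antibiotics that binds bacterial ribosomes and also inhibits the mitochondrial one. Every off library had doxycycline and none of the libraries analysed here came from treated cells without the R882H vector, so an effect of the drug and an effect of the loss of R882H cannot be told apart in any off against on comparison.

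Total counts per library were 9292644 to 14340624. The 78 genes took 28010 to 60666 counts per library, 0.287% to 0.459% of the total. Averaged over the 10 libraries, their levels ran from 4.48 CPM (Mrps27) to 199 CPM (Mrps26), with a median of 37.0 CPM, where CPM is the count scaled to library size, with TMM factors. The lowest value of any of them in any library was 2.90 CPM, well above the 0.209 to 0.323 CPM that a count of 0 allows (3 counts of the total, counting error only). A 3' tag method counts transcripts with little dependence on length, but levels are compared here between libraries and not between genes.

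Marker genes of the sort and of other cells differed between the groups. Kit, the gene of cKit, stood at 30.9 to 36.4 CPM in the day 14 off libraries and at 88.9 and 98.1 CPM in the day 14 on libraries. Summed levels below cover every listed gene. Of 10 genes of dividing cells all 10 were called higher in day 14 off than day 14 on, and their summed level was 1645 to 1995 CPM against 687 to 763 CPM. Of 15 erythroid genes 11 were called higher and none lower, with sums of 3773 to 4900 CPM against 1354 to 2231 CPM. Lower calls were made for 5 of 10 granulocyte genes, with sums of 679 to 987 CPM against 1093 to 1964 CPM, and for 2 of 5 monocyte and macrophage genes, with sums of 33.3 to 40.3 CPM against 40.6 to 55.2 CPM. For T and NK cell genes 1 of 4 was called in each direction, with sums of 73.7 to 108 CPM against 61.1 to 67.4 CPM. For B cell genes none of 3 was called, with sums of 6.60 to 8.27 CPM against 5.87 to 8.39 CPM, and for stromal and endothelial genes 1 of 2 was called in each direction, with sums of 34.2 to 51.3 CPM against 117 to 217 CPM. No marker of these lists was at 0 in all libraries. The part of dividing cells and of cell type in the results below was not tested, and in sorted bulk samples fewer cells of a type and less RNA per cell cannot be told apart.

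Day 14, off against on. At day 14, about as many of these genes were called higher with R882H off as were not called, and the called genes came from both subunits. With edgeR's quasi-likelihood test and an adjusted p below 0.05, 40 of the 78 were called higher in day 14 off and 1 was called lower (Mrpl39). Among all genes tested, 16.9% were called higher and 15.0% lower. The median log2 change of the 78 was 0.46, while that of all tested genes was 0.01. The called rises ran from 1.31-fold to 2.29-fold, and 4 of them were at least 2-fold. The 37 genes without a call had log2 changes from -0.12 to 0.52, and 31 of these estimates were above 0. The lowest of the 4 day 14 off libraries lay above the higher day 14 on library for 60 of the 78 genes, against 27.9% of all tested genes.

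**Figure D1:**
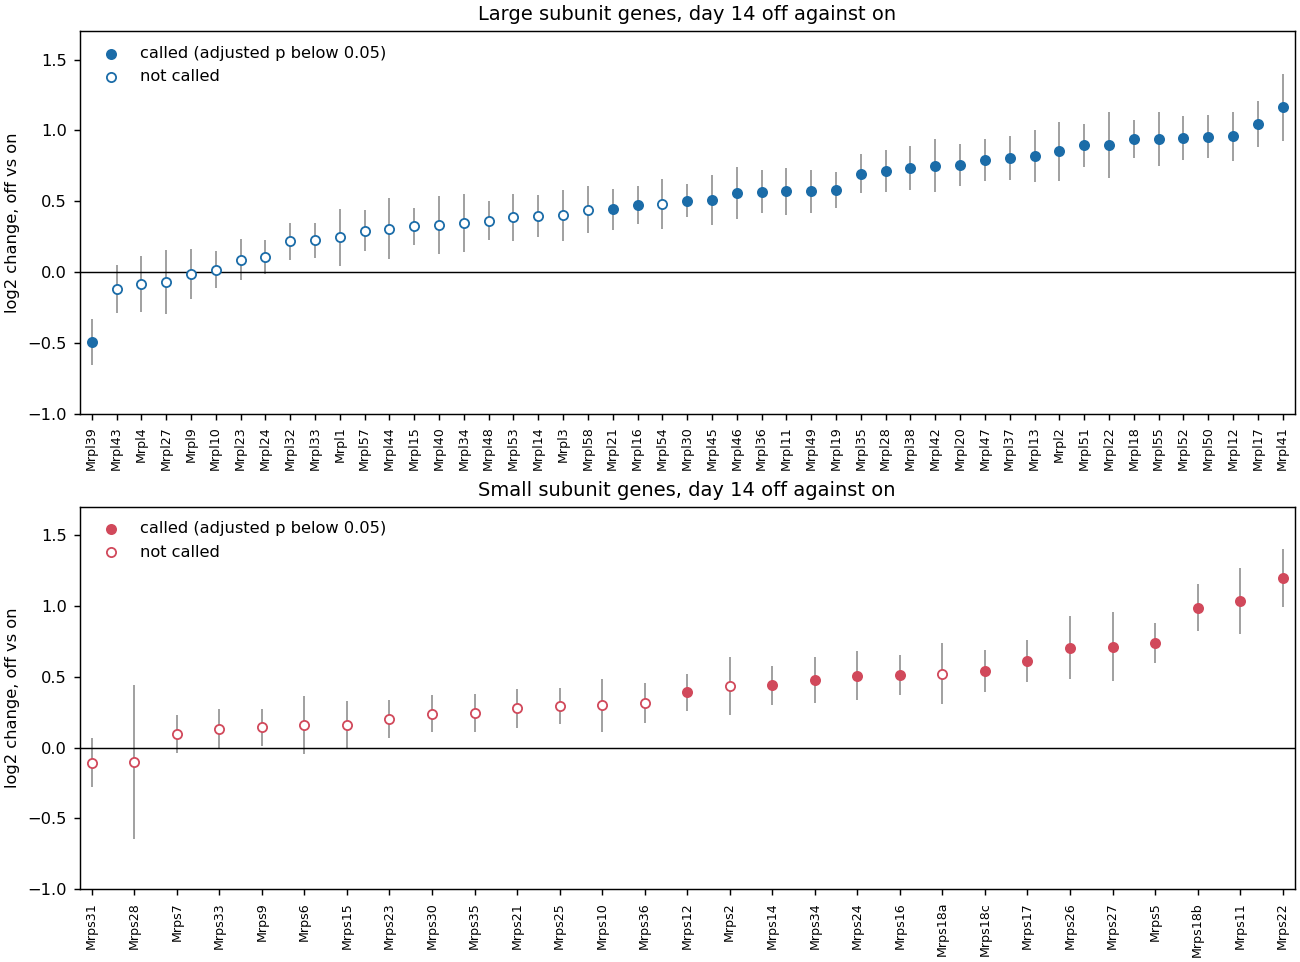
Each point is the log2 change of one gene between day 14 off (n = 4 libraries) and day 14 on (n = 2), with its standard error as a bar, for 49 large subunit genes (blue, top) and 29 small subunit genes (red, bottom) in order of the change; filled points passed the test. Filled points lie above 0 for 27 large and 13 small subunit genes, and Mrpl39 is the single filled point below 0.

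These counts rest on few libraries. Without day 14 on replicate 1 the higher calls fell to 18, without day 14 on replicate 2 to 22 and without day 14 off replicate 2 to 25. Calls of 13 genes held in each of the 10 removals of a single library. They were Mrpl12, Mrpl17, Mrpl18, Mrpl20, Mrpl35, Mrpl37, Mrpl41, Mrpl50, Mrpl51 and Mrpl52 of the large subunit and Mrps5, Mrps18b and Mrps22 of the small subunit.

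Some of the genes overlap exons of a neighbour. For 26 of the 78, another gene counted at 10% or more of their own mean lay over their exons on one strand or the other, and the strand setting of the counting is not given in the sources used here, so reads of such pairs cannot be told apart. Higher calls were made for 13 of these 26 genes and for 27 of the 52 without such an overlap, with median log2 changes of 0.44 and 0.48. Of the genes described below, Mrpl3, Mrpl10, Mrpl12, Mrpl18, Mrpl19, Mrpl44, Mrpl46, Mrpl47 and Mrpl58 of the large subunit are among the 26. So are Mrps7, Mrps11, Mrps18b, Mrps18c and Mrps34 of the small subunit.

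Large subunit at day 14. Of the 49 large subunit genes 27 were called higher and 1 lower, with a median log2 change of 0.51. Mrpl41, which encodes a protein with no bacterial counterpart, was at 6.32 and 7.41 CPM in the day 14 on libraries and at 12.6, 17.4, 14.3 and 17.3 CPM in the day 14 off libraries. Both day 14 on libraries were low, and the groups did not overlap. The difference was 2.24-fold (log2 1.16, SE 0.23, adjusted p = 0.00387).

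Mrpl17, a homologue of a bacterial large subunit protein, was at 50.8 and 61.1 CPM in day 14 on and at 122, 112, 130 and 97.8 CPM in day 14 off. The difference was 2.06-fold (log2 1.04, SE 0.16, adjusted p = 0.000892). Here the day 14 off libraries were the ones that stood apart, since day 5 on was at 59.3 and 72.0 CPM and day 5 off at 74.4 and 84.9 CPM.

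Mrpl12 is the flexible stalk protein to which translation factors bind, and it has also been reported to bind the mitochondrial RNA polymerase. It was at 63.1 and 77.3 CPM in day 14 on and at 129, 169, 124 and 124 CPM in day 14 off (1.94-fold, log2 0.96, SE 0.17, adjusted p = 0.00219). The other proteins at the base of the stalk, Mrpl10 and Mrpl11, gave different values. Mrpl11 was at 24.7 and 27.3 CPM against 38.4, 42.0, 41.4 and 32.4 CPM (log2 0.57, SE 0.17, adjusted p = 0.0248). Mrpl10 was at 41.2 and 40.6 CPM against 42.9, 43.5, 36.6 and 42.4 CPM, with groups that overlapped and a log2 change of 0.02 (SE 0.13).

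Mrpl18, a protein of the central protuberance of the large subunit, had the smallest adjusted p of the 78 genes. It was at 102 and 92.7 CPM in day 14 on and at 177, 195, 195 and 178 CPM in day 14 off (1.92-fold, log2 0.94, SE 0.13, adjusted p = 0.000549). Mrpl50 was at 18.6 and 20.7 CPM against 38.5, 41.5, 34.6 and 37.7 CPM (log2 0.96, SE 0.15, adjusted p = 0.00115). Mrpl52 was at 70.4 and 55.4 CPM against 123, 122, 111 and 127 CPM (log2 0.94, SE 0.16, adjusted p = 0.00132). In each of these 3 genes the groups were separated. For Mrpl18 and Mrpl50 both day 14 on libraries lay below every other library. For Mrpl52 all 4 day 14 off libraries lay above every other library.

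Mrpl51, Mrpl47 and Mrpl37 were also higher in all 4 day 14 off libraries than in both day 14 on libraries. Mrpl51 was at 34.2 and 34.9 CPM against 60.5 to 69.1 CPM (log2 0.90, adjusted p = 0.00158). Mrpl47, whose yeast counterpart sits beside the exit of the peptide tunnel, was at 119 and 140 CPM against 205 to 255 CPM (log2 0.79, adjusted p = 0.00263). Mrpl37 was at 46.9 and 46.6 CPM against 73.0 to 90.7 CPM (log2 0.80, adjusted p = 0.00292).

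Of 4 other large subunit genes with a known special role, 1 was called. Mrpl45, which anchors the ribosome at the inner membrane near the tunnel exit, was at 25.2 and 27.6 CPM against 32.4 to 42.9 CPM (log2 0.51, adjusted p = 0.0486). Mrpl44, which has a fold like ribonuclease III, was at 23.8 and 30.3 CPM against 30.1 to 37.0 CPM, and its log2 change of 0.31 (SE 0.21, adjusted p = 0.307) was not called. Mrpl58, a ribosomal protein of the release factor family that can free stalled peptides, was at 8.50 and 9.39 CPM against 11.7 to 13.0 CPM, with separated groups but no call (log2 0.44, adjusted p = 0.0639). Mrpl3, in which human variants cause cardiomyopathy, had a log2 change of 0.40 (adjusted p = 0.112).

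Mrpl39 was the exception in direction. It was at 20.4 and 16.8 CPM in day 14 on and at 12.7, 15.0, 12.0 and 13.2 CPM in day 14 off (0.711-fold, log2 -0.49, SE 0.16, adjusted p = 0.0410). The day 5 libraries, at 15.7 and 14.0 CPM with R882H on and 15.6 and 17.2 CPM with it off, overlapped with both day 14 groups. The call was lost without day 14 on replicate 1 (adjusted p = 0.265) and without 5 other single libraries (day 14 on replicate 2, day 5 off replicate 2 and day 14 off replicates 1, 3 and 4), as well as with a replicate block and with no filter on low counts.

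Small subunit at day 14. Of the 29 small subunit genes 13 were called higher and none lower (edgeR), with a median log2 change of 0.39. None of the 29 was lower at an unadjusted p below 0.05, and DESeq2 and limma voom called none lower. Mrps22, a protein found only in mitochondria in which human variants cause inherited disease of the respiratory chain, had the largest rise of all 78 genes. It was at 5.91 and 6.23 CPM in day 14 on and at 13.0, 16.5, 13.4 and 12.9 CPM in day 14 off (2.29-fold, log2 1.20, SE 0.21, adjusted p = 0.00162). The day 14 on libraries were the ones that stood apart, since the day 5 libraries were at 12.1 and 10.6 CPM (on) and 10.3 and 13.9 CPM (off).

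Mrps11, a protein of the platform where messenger and ribosomal RNA meet, was at 6.94 and 6.59 CPM against 14.6, 14.9, 15.8 and 10.2 CPM (2.05-fold, log2 1.04, SE 0.23, adjusted p = 0.00710). Mrps5, which lies at the entry of the messenger RNA channel, was at 31.6 and 35.1 CPM against 62.4, 55.4, 50.6 and 54.2 CPM (log2 0.74, SE 0.14, adjusted p = 0.00271). Mrps11 varied more than most, with day 14 off replicate 4 below the other 3 libraries of its group.

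Mammals have 3 homologues of the bacterial small subunit protein S18. Mrps18b was at 41.8 and 45.9 CPM against 85.0, 92.9, 87.2 and 82.4 CPM (1.98-fold, log2 0.99, SE 0.17, adjusted p = 0.00142). Mrps18c was at 18.8 and 17.3 CPM against 26.2, 28.9, 26.4 and 23.0 CPM (log2 0.54, SE 0.15, adjusted p = 0.0181). Mrps18a, which sits in the large subunit despite its name, was at 11.4 and 8.49 CPM against 13.5, 15.2, 15.4 and 12.8 CPM, and its log2 change of 0.52 (SE 0.22, adjusted p = 0.0910) was not called. Mrps18c shares same-strand exon sequence with the gene model Gm43511.

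Mrps17, Mrps16 and Mrps14 all have bacterial homologues, and all were called higher. Mrps17 was at 30.2 and 35.6 CPM against 49.1 to 51.0 CPM (log2 0.61, adjusted p = 0.0101). Its coefficient of variation over the 4 day 14 off libraries was 1.74%, the lowest of the 78 genes, whose median was 8.85%. Mrps16 (log2 0.51, adjusted p = 0.0195) and Mrps14 (log2 0.44, adjusted p = 0.0316) had smaller changes than Mrps17.

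Among the small subunit genes with a named role, Mrps12 (decoding centre) was at 30.1 and 36.8 CPM against 42.4 to 45.1 CPM (log2 0.39, adjusted p = 0.0430), the smallest called rise. Mrps34, needed for a stable small subunit in mice, was at 37.0 and 42.5 CPM against 52.2 to 63.4 CPM (log2 0.47, adjusted p = 0.0458). Mrps27, a protein with pentatricopeptide repeats, was low throughout, at 2.90 and 3.70 CPM against 4.91 to 6.40 CPM (log2 0.71, adjusted p = 0.0458). Mrps7, which lies in the head of the subunit, was at 55.7 and 59.8 CPM against 55.3 to 70.3 CPM, with overlapping groups and a log2 change of 0.10 (SE 0.14, adjusted p = 0.627). Mrps2 (log2 0.44, adjusted p = 0.130), Mrps30 (log2 0.24, adjusted p = 0.191) and Mrps36 (log2 0.31, adjusted p = 0.115) were not called, and Mrps36 is now known as a part of the 2-oxoglutarate dehydrogenase complex.

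**Figure D2:**
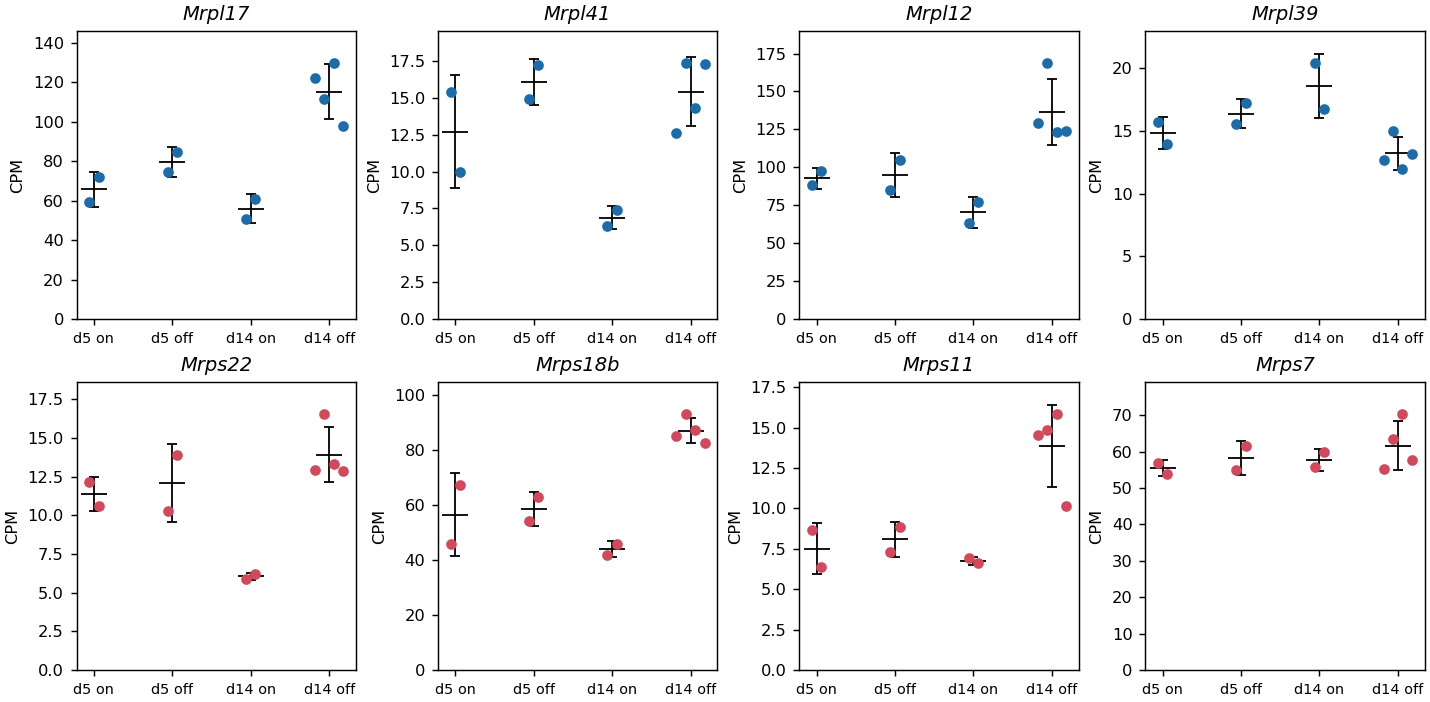
CPM in each library (points) for 4 large subunit genes (blue, top row) and 4 small subunit genes (red, bottom row) by group, with the group mean and standard deviation as black bars (n = 2, and n = 4 for day 14 off). Mrpl41 and Mrps22 were low in the day 14 on libraries, Mrpl17, Mrpl12, Mrps18b and Mrps11 were high in the day 14 off libraries, Mrpl39 went the other way and Mrps7 overlapped between groups.

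Change between day 5 and day 14. The genes called in off against on at day 14 were also compared between the days, within the on and within the off libraries. Of the 40 genes called higher, 35 had a lower level at day 14 than at day 5 in the on libraries, with a median log2 change of -0.34, and 33 had a higher level at day 14 than at day 5 in the off libraries, with a median of 0.22. The fall in on libraries was larger than the rise in off libraries in 19 of the 40. Here a rise in on or a fall in off counted as negative. None of the 40 was called lower between the days with R882H on, and 9 were called higher with it off. The 40 were chosen from the same day 14 libraries, so low on and high off levels at day 14 are favoured by that choice. No share of all tested genes was computed beside these counts. They describe where the difference lay and are no separate evidence for it.

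With R882H on, no gene of the 78 passed the test between the days, in either direction. At an unadjusted p below 0.05, 24 were lower and 1 was higher at day 14, DESeq2 called 7 lower and 1 higher (Mrpl10), and limma voom called none. Of all genes tested, edgeR called 0.854% higher and 1.11% lower. The median log2 change of the 78 was -0.29, against 0.00 for all tested genes, and it was -0.14 without day 5 on replicate 2. The summed level of the genes of dividing cells was 867 to 1172 CPM in day 5 on and 687 to 763 CPM in day 14 on, with none of the 10 called, 6 lower at an unadjusted p below 0.05, 3 lower by DESeq2 and none by limma voom. For 45 of the 78, both day 14 on libraries lay below both day 5 on libraries, against 23.1% of all tested genes. The largest estimates were those of Mrps22 (log2 -0.90, SE 0.23, adjusted p = 0.0658), Mrpl41 (-0.88, SE 0.26, adjusted p = 0.0968) and Mrpl13 (-0.87, SE 0.21, adjusted p = 0.0582).

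Mrpl13 was at 233 and 162 CPM in day 5 on and at 101 and 115 CPM in day 14 on. Mrpl19 was at 100 and 96.3 CPM and then at 59.0 and 68.0 CPM (log2 -0.63, SE 0.14, adjusted p = 0.0506), and Mrpl35 at 40.9 and 38.0 CPM and then at 24.8 and 25.9 CPM (log2 -0.64, SE 0.16, adjusted p = 0.0590). Mrps18c was at 29.2 and 28.8 CPM and then at 18.8 and 17.3 CPM (log2 -0.69, SE 0.17, adjusted p = 0.0583). None of these passed the threshold, although in each the day 14 libraries were both below the day 5 libraries. Mrpl10 had an estimate in the other direction, from 27.3 and 26.6 CPM to 41.2 and 40.6 CPM (log2 0.60, SE 0.15, adjusted p = 0.0649).

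With R882H off, 9 of the 78 genes were called higher at day 14 than at day 5 and 1 was called lower. Of all genes tested, 9.91% were called higher and 6.86% lower, so the share of rises was near that of all tested genes. The 9 were Mrpl2, Mrpl17, Mrpl28, Mrpl30, Mrpl37 and Mrpl52 of the large subunit and Mrps5, Mrps11 and Mrps18b of the small subunit. All 9 were also among the 40 called at day 14, a comparison that uses the same day 14 off libraries. The median log2 change of the 78 was 0.13 (all tested genes -0.01), but 0.05 without day 5 off replicate 1, 0.07 without day 14 off replicate 2 and 0.21 without day 5 off replicate 2. The day 14 off libraries lay wholly above the day 5 off libraries for 28 of the 78, against 24.2% of all tested genes. The count of 9 was 0 without day 5 off replicate 1, day 14 off replicate 1 or day 14 off replicate 2, 2 without day 5 off replicate 2, 2 without day 14 on replicate 1, 3 without day 14 off replicate 3 and 5 without day 14 off replicate 4. Markers moved in the same comparison: 12 of 15 erythroid genes and 4 of 10 genes of dividing cells were called higher and none lower, with erythroid sums of 1125 to 2539 CPM at day 5 and 3773 to 4900 CPM at day 14, and sums for dividing cells of 1224 to 1243 CPM and 1645 to 1995 CPM. Their part in the result was not tested.

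Mrpl52 rose from 69.0 and 90.6 CPM to 111 to 127 CPM (log2 0.60, SE 0.15, adjusted p = 0.0242), Mrpl37 from 51.7 and 56.5 CPM to 73.0 to 90.7 CPM (log2 0.59, SE 0.15, adjusted p = 0.0242), and Mrpl30 from 47.5 and 50.9 CPM to 62.8 to 71.5 CPM (log2 0.42, SE 0.12, adjusted p = 0.0343). In the small subunit Mrps5 rose from 40.4 and 39.0 CPM to 50.6 to 62.4 CPM (log2 0.49, adjusted p = 0.0344) and Mrps18b from 54.2 and 62.8 CPM to 82.4 to 92.9 CPM (log2 0.57, adjusted p = 0.0356). Mrps33, a small protein with no bacterial counterpart, fell from 57.7 and 68.0 CPM to 41.4 to 49.1 CPM (log2 -0.47, SE 0.14, adjusted p = 0.0386). It had a like estimate with R882H on, from 51.7 and 62.4 CPM to 41.5 and 41.4 CPM (log2 -0.46, SE 0.16, adjusted p = 0.139).

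**Figure D3:**
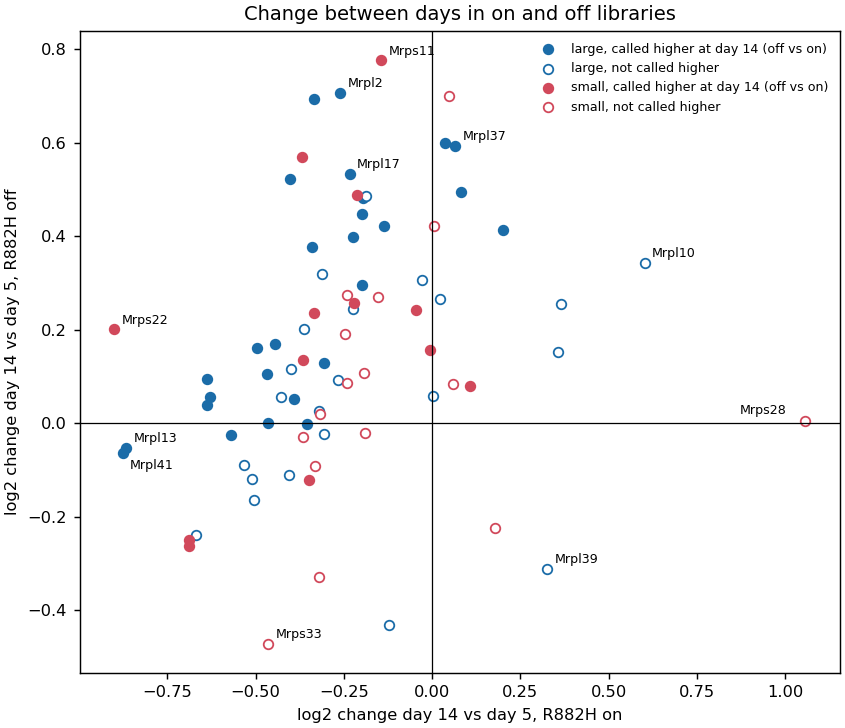
Each point is one of the 78 genes, with its log2 change from day 5 to day 14 in the on libraries (n = 2 per day) on the horizontal axis and in the off libraries (n = 2 at day 5, n = 4 at day 14) on the vertical axis; filled points were called higher in off than on at day 14. Of the 40 filled points 35 lie left of 0 and 33 lie above 0, with Mrps22 and Mrpl41 far left and Mrps11 and Mrpl2 at the top; Mrps28, far right, had the widest spread between replicates.

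Over the 4 groups, the mean level of 57 of the 78 genes was lowest in day 14 on, and that of 43 was highest in day 14 off. The share of all tested genes was not computed for these counts of means. For 31 genes (21 large, 10 small) both day 14 on libraries lay below all 8 other libraries, which was so for 9.91% of all tested genes. For 21 genes (14 large, 7 small) all 4 day 14 off libraries lay above all 6 others, against 12.9% of all tested genes. Mrpl12, Mrpl30, Mrpl47, Mrps5 and Mrps17 did both. Mrps28 had no stable level in any direction, at 30.3, 25.8, 7.57 and 14.8 CPM in day 14 off, with a coefficient of variation of 52.7%.

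**Figure D4:**
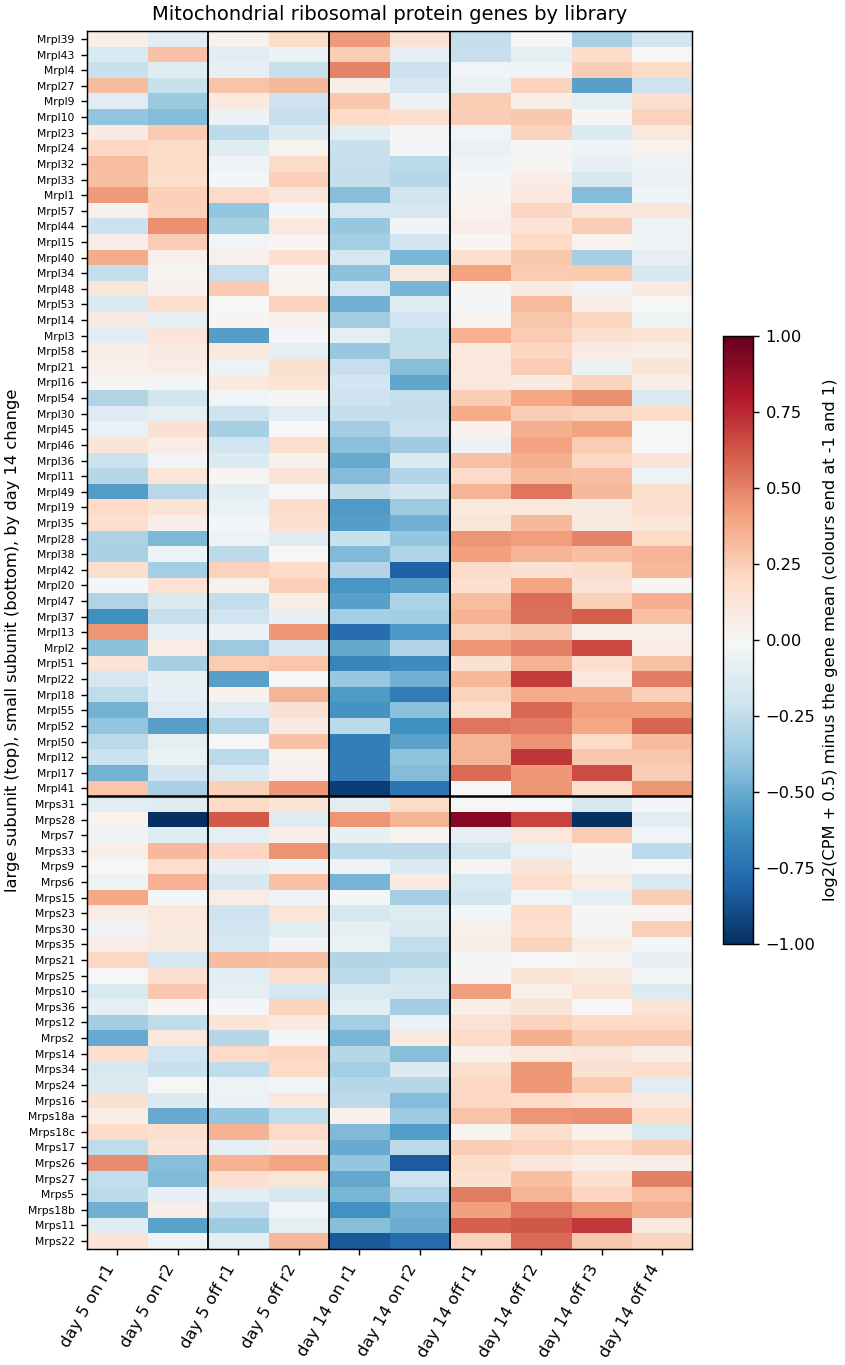
Rows are the 78 genes (large subunit above the line, small below, in order of the day 14 change) and columns the 10 libraries; colour gives log2(CPM + 0.5) minus the mean of the gene over the libraries, from blue (lower) to red (higher), with colours ending at -1 and 1. Blue fills most rows of the 2 day 14 on columns and red most rows of the 4 day 14 off columns, while the day 5 columns are mixed.

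Day 5, off against on. After 5 days no gene of the 78 was called in either direction. At an unadjusted p below 0.05, 2 were higher and 1 was lower, and DESeq2 and limma voom called none. Of all genes tested, edgeR called 0.415% higher and 0.132% lower. The median log2 change of the 78 was 0.05, against -0.02 for all tested genes. Its sign was not stable: it was -0.01 without day 5 on replicate 1 and -0.03 without day 5 off replicate 2, and it was 0.14 without day 5 off replicate 1 and 0.10 without day 5 on replicate 2. Both off libraries lay above both on libraries for 19 of the 78, against 19.3% of all tested genes. Of 15 erythroid genes, edgeR called 5 higher at day 5 and none lower, and limma voom called none. Their sums overlapped, at 1125 to 2539 CPM (off) and 1496 to 3506 CPM (on). T and NK cell sums were 117 to 128 CPM (off) against 53.2 to 62.2 CPM (on), with none of 4 tested genes called. In the other marker lists no gene was called. The part of cell type was not tested.

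The genes of smallest p at day 5 were Mrpl18, Mrpl52 and Mrpl23 of the large subunit and Mrps12, Mrps27 and Mrps21 of the small subunit. Mrps12 was at 30.0 and 32.0 CPM with R882H on and at 42.1 and 40.9 CPM with it off (log2 0.42, SE 0.15, adjusted p = 0.240). Mrpl18 was at 126 and 143 CPM against 156 and 191 CPM (log2 0.37, SE 0.15, adjusted p = 0.288). Mrpl23 had the opposite sign, at 36.6 and 41.7 CPM against 28.8 and 31.5 CPM (log2 -0.38, SE 0.17, adjusted p = 0.328). Mrps27 (log2 0.55, adjusted p = 0.391), Mrpl52 (log2 0.38, adjusted p = 0.337) and Mrps21 (log2 0.28, adjusted p = 0.432) were not called either.

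The difference between the days was tested itself, as the off effect at day 14 minus that at day 5. None of the 78 was called in either direction, while 1.63% of all tested genes were called higher and 1.48% lower. At an unadjusted p below 0.05, 28 were higher and 1 was lower, DESeq2 called 5 higher (Mrpl12, Mrpl19, Mrpl35, Mrps18b and Mrps22) and limma voom called none. The median was 0.44 on the log2 scale, against 0.03 for all tested genes. The smallest adjusted p in edgeR was that of Mrps18b (0.94, SE 0.24, adjusted p = 0.0629), followed by Mrps22 (1.10, SE 0.30, adjusted p = 0.0704), Mrpl19 (0.69, SE 0.19, adjusted p = 0.0712), Mrpl12 (0.93, SE 0.26, adjusted p = 0.0737), Mrpl35 (0.73, SE 0.21, adjusted p = 0.0756) and Mrps5 (0.70, SE 0.21, adjusted p = 0.0863). By this test the off effect at day 14 is not shown to exceed that at day 5 for any one of the 78 genes.

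Large against small subunit. The summed level of the 49 large subunit genes was 2387 and 2419 CPM in day 5 on, 2307 and 2671 CPM in day 5 off, 1899 and 1938 CPM in day 14 on, and 2788, 3038, 2777 and 2708 CPM in day 14 off. That of the 29 small subunit genes was 1268 and 1182 CPM in day 5 on, 1246 and 1354 CPM in day 5 off, 1004 and 995 CPM in day 14 on, and 1335, 1404, 1321 and 1288 CPM in day 14 off. Both subunits were thus lowest in day 14 on. The day 14 off libraries were above all others for the large subunit, but for the small subunit they overlapped with day 5 off.

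The ratio of the large to the small sum was 2.11 ± 0.0339 (SD, n = 4) in day 14 off and 1.92 ± 0.0390 (SD, n = 2) in day 14 on, and the 2 groups did not overlap (2.09 to 2.16 and 1.89 to 1.95). In the day 5 libraries it was 1.88 and 2.05 with R882H on and 1.85 and 1.97 with it off. On the log2 scale the ratio was higher by 0.14 in day 14 off than in day 14 on, and by 0.15 than in day 5 off, with a pooled SD between replicates of 0.05. As a score over chosen genes the ratio was not tested. Its size depended on how the genes were combined: the mean log2 CPM in place of sums gave 0.09 for day 14 off against on. For day 14 off against day 5 off it gave 0.0697, and leaving out the most abundant gene of each subunit gave 0.0618.

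**Figure D5:**
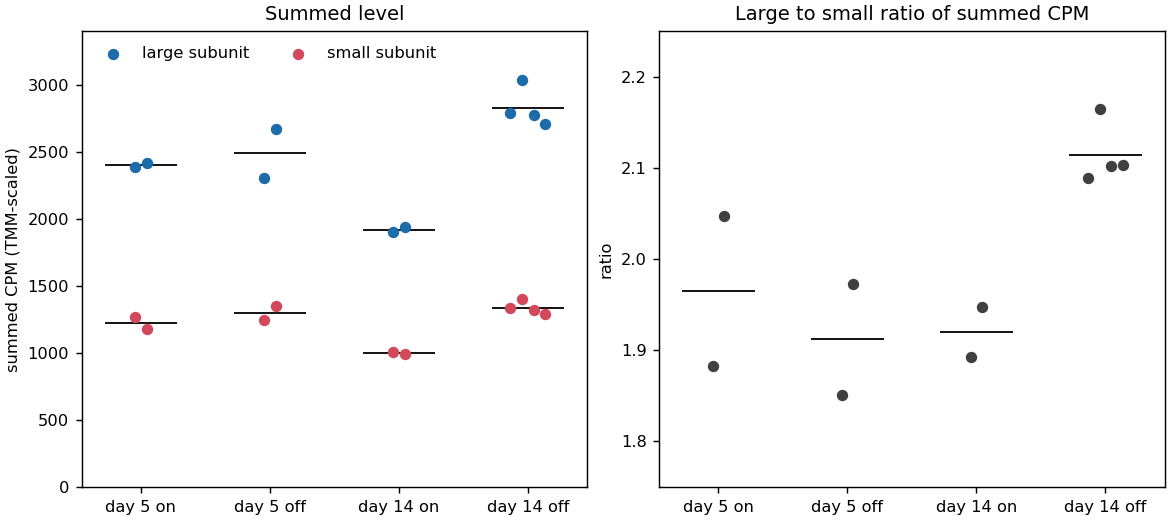
Left, summed CPM of the 49 large (blue) and 29 small (red) subunit genes in each library by group, and right, the ratio of the large to the small sum (on an axis that does not start at 0); points are libraries and lines group means. Both sums are lowest in day 14 on, and the 4 day 14 off ratios (2.09 to 2.16) lie above those of the 6 other libraries (1.85 to 2.05).

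By symbol, 27 of 49 large and 13 of 29 small subunit genes were called higher at day 14, and groups did not overlap for 37 of 49 and 23 of 29. Symbols do not fully match the structure of the mammalian ribosome, in which the products of Mrps30 and Mrps18a are in the large subunit. With these moved and Mrps36 left out, the counts were 27 of 51 large and 13 of 26 small subunit genes, with median log2 changes of 0.51 and 0.41. The difference between subunits in the share called was not tested.

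Partners of the mitochondrial ribosome. Some structural proteins of the ribosome have other names. All 5 listed were called higher at day 14 and none lower, with a median log2 change of 0.72. Dap3, a GTP-binding protein of the small subunit, was at 34.6 and 30.4 CPM in day 14 on and at 62.7, 67.1, 61.9 and 74.7 CPM in day 14 off (log2 1.03, SE 0.14, adjusted p = 0.000387). Ptcd3, a small subunit protein with pentatricopeptide repeats (log2 0.72, adjusted p = 0.00420), Gadd45gip1, a large subunit protein at the tunnel exit (log2 0.74, adjusted p = 0.0280), Chchd1 (log2 0.59, adjusted p = 0.00399) and Aurkaip1 (log2 0.45, adjusted p = 0.0421), both of the small subunit, were the others. Between the days, Dap3 alone of the 5 was called, in off libraries (log2 0.66, SE 0.13, adjusted p = 0.00952), and it was also called in the test of the difference between the days (0.89, SE 0.20, adjusted p = 0.0469).

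Assembly factors fold and modify the ribosomal RNA and place the proteins. At day 14, 6 of 26 were called higher and none lower, a share not far from the 16.9% of all tested genes, with a median log2 change of 0.20. The 6, with their log2 changes, were Rcc1l (1.31), Mrm2, a methyltransferase of the large ribosomal RNA (1.16), Fastkd2, an RNA-binding protein (1.12), Mrm3 (0.99), the GTPase Noa1 (0.87) and Mpv17l2 (0.55). Rcc1l was at 11.5 and 18.7 CPM in day 14 on and at 43.2, 38.3, 36.8 and 32.0 CPM in day 14 off, and Mrm2 at 3.52 and 4.97 CPM and at 10.1, 10.8, 7.92 and 9.41 CPM. Both were called higher in the test of the difference between the days (Rcc1l 1.47, adjusted p = 0.0499, and Mrm2 1.53, adjusted p = 0.0398), but limma voom called no assembly factor in that test. The GTPase Mtg2 went the other way at day 5, from 223 and 233 CPM in the on libraries to 102 and 123 CPM in the off libraries (log2 -1.02, SE 0.18, adjusted p = 0.0439), and it also fell between the days in on libraries, to 108 and 134 CPM (log2 -0.92, adjusted p = 0.0403). The day 5 call was lost with limma voom.

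Of 14 tested translation factors 3 were called higher at day 14 and none lower, also near the 16.9% of all tested genes, with a median log2 change of 0.34. They were Lrpprc, which stabilises mitochondrial messenger RNA (0.90), the elongation factor Tufm (0.66) and the initiation factor Mtif2 (0.60). Tufm was at 12.4 and 14.8 CPM in day 14 on and at 22.2, 21.5, 23.4 and 18.9 CPM in day 14 off. Of 4 genes of mitochondrial transcription 1 was called higher, Tfam (log2 0.64, adjusted p = 0.00906), which packs mitochondrial DNA and starts its transcription. Mitochondrial aminoacyl-tRNA synthetases had 4 of 17 called higher at day 14 (23.5%) and none lower, with a median log2 change of 0.59. At an unadjusted p below 0.05 in edgeR, 10 of the 17 were higher.

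The ribosomal RNAs of the mitochondrial ribosome, mt-Rnr1 and mt-Rnr2, were not called at day 14 (log2 -0.07, SE 0.35, and -0.16, SE 0.30), nor at an unadjusted p below 0.05 or by DESeq2 or limma voom. They were read here from libraries of polyA RNA, and replicates were far apart, with mt-Rnr1 at 6957 and 3133 CPM in day 5 on. Complex I, a main user of proteins made by the mitochondrial ribosome, had 28 of 45 tested genes called higher and none lower, with a median log2 change of 0.53. Cytosolic ribosomal protein genes had 8 of 76 called higher and none lower, a share below the 16.9% of all tested genes, with a median of 0.09. Between the days with R882H on, 12 of these 76 were called lower (median -0.47), against 1.11% of all tested genes in that comparison.

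Genes of regulators known to act on nuclear genes of mitochondrial proteins were tested as well, 8 in all. Pprc1, a coactivator, was at 9.85 and 11.9 CPM in day 14 on and at 20.8, 22.0, 15.1 and 23.3 CPM in day 14 off (log2 0.90, SE 0.21, adjusted p = 0.00844). Ppargc1b, a related coactivator, was at 0 and 0.0903 CPM and at 4.66, 5.71, 2.41 and 1.69 CPM, and was called higher (adjusted p = 0.00149), while Gabpb1, a subunit of an ETS family factor, was lower (log2 -0.65, adjusted p = 0.0358). Nrf1 (0.22), Gabpa (-0.06), Yy1 (0.06), Myc (0.40) and Esrra (-0.04) were not called at day 14.

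Promoters. Nuclear genes of mitochondrial proteins are known for promoters with sites for NRF1 and for ETS factors such as GABP, and YY1 sites are common near the starts of ribosomal protein genes. RefSeq promoter windows (GRCm38.p6, 250 bases before to 50 bases after the start) were found for 69 of the 78 genes, and 4 motifs were searched on both strands, with no overlap between matches of different motifs. CGCANGCG (NRF1) was in 20 of the 69 (29.0%) and in 9.22% of all 27025 genes with a window. CCGGAAG (ETS) was in 26 (37.7%, all genes 9.93%), AAGATGGCG (YY1) in 8 (11.6%, all genes 1.64%) and CACGTG (an E-box, bound by MYC and other factors) in 5 (7.25%, all genes 8.09%). A match is a description of the letters and not evidence of binding.

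These letters did not divide the called from the other genes in one way. NRF1 letters were in 9 of 36 genes called higher at day 14 and in 11 of 33 others, and ETS letters in 13 of 36 and 13 of 33. YY1 letters were in 7 of 36 and 1 of 33, and E-box letters in 5 of 36 and 0 of 33, which are counts on few genes and were not tested. Of the 8 YY1 matches 6 lay after the start.

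The windows of 5 genes are shown as examples: Mrpl17, Mrpl37 and Mrps11 (high in day 14 off), Mrps22 (low in day 14 on) and Mrpl39 (the opposite direction). The day 14 calls of Mrpl17, Mrpl37 and Mrps22 held in every removal of a library, and those of Mrps11 and Mrpl39 did not. Bases after the start matched a GENCODE transcript of that gene on the same strand in only 4 of the 5 windows. The windows read 5' to 3' on the strand of the gene, with motif matches of either strand in capitals.
Mrpl17 (chr7:105811038-105811337, minus strand, 2 NRF1 matches and 1 ETS match): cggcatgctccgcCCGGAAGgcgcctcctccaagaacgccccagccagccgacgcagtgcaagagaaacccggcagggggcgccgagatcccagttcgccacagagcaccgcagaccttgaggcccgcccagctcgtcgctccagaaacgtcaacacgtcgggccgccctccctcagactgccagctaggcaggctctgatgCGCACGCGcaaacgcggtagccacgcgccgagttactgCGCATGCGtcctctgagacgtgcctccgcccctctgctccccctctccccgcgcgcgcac
Mrps11 (chr7:78782881-78783180, plus strand, 1 YY1 match): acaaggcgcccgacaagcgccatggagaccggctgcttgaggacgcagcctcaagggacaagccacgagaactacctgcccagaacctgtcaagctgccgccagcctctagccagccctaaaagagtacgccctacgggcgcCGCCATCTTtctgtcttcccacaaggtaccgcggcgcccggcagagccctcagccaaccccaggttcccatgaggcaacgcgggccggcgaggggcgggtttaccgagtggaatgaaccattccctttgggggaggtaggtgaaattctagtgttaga
Mrps22 (chr9:98601630-98601929, minus strand, 1 ETS match): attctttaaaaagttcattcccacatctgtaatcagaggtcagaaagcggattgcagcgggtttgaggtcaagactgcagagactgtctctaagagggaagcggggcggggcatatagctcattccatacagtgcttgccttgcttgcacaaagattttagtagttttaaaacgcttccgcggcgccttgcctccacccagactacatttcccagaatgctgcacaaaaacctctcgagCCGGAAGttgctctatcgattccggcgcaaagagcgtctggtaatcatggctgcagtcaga
Mrpl37 (chr4:107066817-107067116, minus strand, 1 E-box match and 1 YY1 match): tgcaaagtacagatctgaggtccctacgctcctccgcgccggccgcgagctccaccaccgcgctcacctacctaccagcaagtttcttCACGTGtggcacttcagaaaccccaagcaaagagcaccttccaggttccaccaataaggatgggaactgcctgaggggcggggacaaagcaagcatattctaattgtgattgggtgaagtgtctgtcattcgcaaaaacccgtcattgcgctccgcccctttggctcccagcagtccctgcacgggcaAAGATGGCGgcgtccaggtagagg
Mrpl39 (chr16:84735195-84735494, minus strand, 1 NRF1 match): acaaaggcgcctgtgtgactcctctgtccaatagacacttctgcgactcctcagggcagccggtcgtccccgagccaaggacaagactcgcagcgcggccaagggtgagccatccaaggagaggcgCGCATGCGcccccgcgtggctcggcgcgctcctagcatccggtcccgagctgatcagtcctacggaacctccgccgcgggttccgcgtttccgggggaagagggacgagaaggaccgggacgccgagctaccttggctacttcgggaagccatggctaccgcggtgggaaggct

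The window of Mrps11 is shared with a second gene of the ribosome. Mrps11 and Mrpl46 lie head to head on chromosome 7, with RefSeq starts 42 bases apart (78783131 on the plus strand and 78783089 on the minus strand). Their windows share 141 bases. The YY1 letters in the Mrps11 window, at position -108, lie downstream of the RefSeq start of Mrpl46. Both were called higher at day 14, Mrps11 with a log2 change of 1.04 and Mrpl46 with 0.56 (SE 0.18, adjusted p = 0.0392). Mrpl46 was at 16.0 and 16.7 CPM in day 14 on and at 20.7, 28.5, 25.7 and 21.5 CPM in day 14 off. Transcripts from these RefSeq starts would not overlap. In GENCODE, however, the exons of Mrps11 and Mrpl46 overlap by 173 bases, so the starts in RefSeq and GENCODE differ. Both Mrpl17, with NRF1 letters near its start, and Mrpl39, with NRF1 letters further upstream, hold the same motif and were called in opposite directions.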

How the data were processed

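RNA of sorted cells was measured by QuantSeq 3' mRNA sequencing in 10 libraries, per the labels' protocols. The authors deposited whole-number read counts per gene. Per the submitters' processing notes, bcl2fastq 2.17.1.14, cutadapt 1.14, HISAT2 2.0.4, limma 3.48.3, edgeR 3.34.0, featureCounts with Subread 2.0.0 and the mm10 build were used. How these tools were set, which strand was counted and which annotation was used is not given in the sources read. Counts per library were 9292644 to 14340624, and genes at ribosomal RNA loci took 7.78% to 16.5% of them.

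From these deposited counts, CPM with TMM scaling (factors 0.959 to 1.03) and edgeR 4.0.16 quasi-likelihood tests (R 4.3.3) were computed in 1 fit over the 10 libraries, with filterByExpr (minimum count 10) and Benjamini-Hochberg adjustment over all 15916 tested genes. A call is an adjusted p below 0.05. The procedure was tested on simulated data. DESeq2 1.42.0, limma voom (limma 3.58.1), other scaling and filters, a replicate block, subsets of genes and removal of each library were the alternatives. Gene types and coordinates came from GENCODE M21 (mm10), which held 52489 of the 52636 identifiers, and promoters from RefSeq (GRCm38.p6).

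The members, gene lists, tests and alternatives were chosen with earlier results of these data known. Genes were named by a rule: the 8 genes of each subunit with the smallest p for day 14 off against on, called genes against the main direction, the extreme log2 changes, the 3 genes of each subunit with the smallest p in each other comparison, and genes chosen for their role. This gave 39 genes; Mrps26, Mrps28, Mrpl46 and the genes listed only by symbol were named after their values were seen. No 2 libraries of the same group were alike within sampling noise, and pairs across groups were not compared.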

Additional observations from a re-analysis of the deposited data

Results flagged for a closer look

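Among the 4 day 14 off libraries, 5 genes had 1 library far from the other 3, where the gap to the nearest library is given as a share of the range of the group. Mrps34 had a share of 0.928, with replicate 2 at 63.4 CPM. Mrpl35 had 0.898 (replicate 2 at 45.8 CPM), Mrps22 0.874 (replicate 2 at 16.5 CPM) and Mrpl12 0.871 (replicate 2 at 169 CPM). Mrpl10 had 0.848, with replicate 3 low at 36.6 CPM. In 4 of the 5 the library was day 14 off replicate 2. In all, 43 groups of values were examined, and chance flags about 1 in 20.

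For 3 partner genes the off effect differed between the days by the edgeR test of that difference. Dap3 had a log2 change of 0.15 at day 5 and 1.03 at day 14, a difference of 0.89. Mrm2 had -0.37 and 1.16, a difference of 1.53, and Rcc1l had -0.16 and 1.31, a difference of 1.47. With limma voom the calls of Mrm2 and Rcc1l were lost.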

How the results depend on the processing

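The higher calls at day 14 were 18 to 38 over the alternatives, against 40, and 18 to 36 when 1 library was left out; no result changed direction where it was called. The lower call at day 14 (Mrpl39) was 0 with no low-count filter and with a replicate block, and 0 to 1 over the removals. At day 5, 1 higher call appeared with no filter, and the removals gave 0 in each direction. Between the days with R882H on, higher calls were 1 with no filter, DESeq2 and the block (0 over the removals), and lower calls were 2 with no filter, 3 with the 5 CPM filter, 7 with DESeq2, 5 with the block and 0 to 3 over the removals. With R882H off, higher calls were 14 with DESeq2, 14 with only the groups compared and 0 to 11 over the removals; lower calls were 0 with no filter and with the block, 2 with only the groups compared and 0 to 1 over the removals. For the difference between the days, higher calls were 2 with no filter, 5 with DESeq2, 6 with the block and 0 to 1 over the removals, and lower calls were 1 with no filter and 0 over the removals. The log2 change of the large to small ratio at day 14 was 0.0897 from mean log2 CPM and 0.12 to 0.16 over the removals. Between the days it was 0.0697 (off, mean log2 CPM), 0.0618 (off) and -0.11 (on) without the most abundant gene of each subunit, 0.10 to 0.19 (off) and -0.0928 to 0.0282 (on) over the removals, and at day 5 -0.10 to 0.0218. The causes of these shifts were not tested. With the 26 overlapping genes left out, a choice made after seeing the data, 27 of 52 were called higher and 1 lower. Replicate numbers pair no libraries in the labels. Deviations of same-numbered libraries correlated at 0.03 to 0.33 over 2 shared numbers, all above 0. Between groups of 2 libraries both numbers gave the same value. Replicate 1 had the higher granulocyte sum in day 5 on (1658 against 905 CPM) and day 5 off (817 against 548 CPM). So it had in day 14 on (1964 against 1093 CPM). Its erythroid sum was the lower in the same groups (1496 against 3506, 1125 against 2539 and 1354 against 2231 CPM). The sum of dividing cells had no such order. Whether replicate numbers mark a shared source was not tested. With the replicate block 38 genes were called at day 14, of which 36 were among the 41. Groups of 2 libraries limit all of these counts.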
